A study of Homo sapiens with 4 samples.

Results

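Vimentin, the simple keratins and the plakin linkers form the intermediate filament system of a cell, and 8 of its genes are described here among 20226 listed genes: VIM, VIM-AS1, KRT8, KRT18, KRT19, DSP, PPL and PLEC. They were taken by gene symbol, and each symbol had 1 row. The data are RNA sequencing of Huh7, an established human hepatocellular carcinoma line. The shNUP210 group (2 libraries) carried a short hairpin RNA aimed at NUP210, the gene of a nuclear pore membrane glycoprotein. The shCon group (2 libraries) carried a control hairpin by its titles and has the genotype wild type in the labels. All 4 libraries are labelled untreated, and the labels name no clone, pool or separate culture for the libraries, whose spread may therefore be technical. The 8 genes were selected on their TPM differences between shNUP210 and shCon in these same libraries. Their levels, fold changes and calls are therefore a description, and no p-value is given for them.

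Intermediate filaments are rope-like polymers that give a cell mechanical strength. Keratins polymerise only as pairs of a type I and a type II protein, while vimentin, a type III protein, can polymerise alone and is typical of mesenchymal cells. Hepatocytes make the type II keratin 8 and the type I keratin 18, bile duct cells add the type I keratin 19, and many cell lines in culture also make vimentin. Plakins are large linker proteins that tie these filaments to desmosomes, to hemidesmosomes, to actin and to the nucleus.

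Values are TPM (a relative abundance), which are scaled for transcript length and library total, so that levels of different genes can be compared within a library. Between 13675 and 14564 genes reached 1 TPM per library. The targeted gene, NUP210, had 10.1 and 9.85 TPM in shNUP210 against 32.8 and 27.3 TPM in shCon. All 6 hepatocyte and hepatoma markers were present in every library: ALB (2332 to 2627 TPM), AFP (5450 to 6054), APOB (136 to 156), HNF4A (118 to 166), TTR (275 to 438) and SERPINA1 (1602 to 2716). SERPINA1, which encodes alpha-1-antitrypsin, was the 1 marker of the 6 that limma called, lower in shNUP210 (1617 and 1602 against 2716 and 2635 TPM, adjusted p = 0.0098). TTR was higher in shNUP210 (397 and 438 against 288 and 275 TPM) and not called, at a limma adjusted p that rounds to 0.05. Of the 6, 3 had both shNUP210 libraries higher (AFP, HNF4A and TTR), 1 lower (SERPINA1) and 2 overlapped. Of all tested genes, 42.9% were higher in this way and 14.3% lower. Of 10140 genes tested with limma, 181 were called higher and 109 lower in shNUP210 at an adjusted p under 0.05, and the median difference of all tested genes was +0.23 on the log2(TPM + 1) scale. Trimmed-mean scaling turned the balance to 78 higher and 250 lower, and leaving out 1 library left 3 to 14 higher and 1 to 13 lower.

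Both gene pairs of highest expression share exon sequence on opposite strands. This bears on the values of VIM, VIM-AS1, KRT8 and KRT18, because no source used here gives the strand setting of the counting. VIM (ENSG00000026025, GRCh38 chromosome 10, 17228259 to 17237593, plus strand, protein-coding) overlaps VIM-AS1 (ENSG00000229124, chromosome 10, 17214239 to 17229985, minus strand, antisense RNA). They share 641 exon bases, from 17229345 to 17229985, of which 563 are coding in the VIM transcript of 1868 bases. These bases make up 69.8% of the overlapping VIM-AS1 transcript of 918 bases. The other VIM-AS1 transcript, of 1351 bases, does not overlap VIM. The first 120 coding bases of VIM, chr10:17229423-17229542, show what a read from this exon looks like on each strand. Capitals mark the VIM start codon and its complement, and each line runs 5′ to 3′ from the GENCODE release 29 transcripts.
VIM: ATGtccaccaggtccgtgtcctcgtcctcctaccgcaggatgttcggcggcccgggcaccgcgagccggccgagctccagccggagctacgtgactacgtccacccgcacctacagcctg
VIM-AS1: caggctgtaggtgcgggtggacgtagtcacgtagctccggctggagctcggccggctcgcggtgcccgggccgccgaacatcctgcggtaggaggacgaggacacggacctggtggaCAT

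KRT18 (ENSG00000111057, chromosome 12, 52948871 to 52952901, plus strand) and KRT8 (ENSG00000170421, chromosome 12, 52897187 to 52949954, minus strand) lie side by side with their starts facing each other. Of the 16 KRT8 transcripts with coordinates, 7 have an exon within KRT18 exons, and 525 exon bases are shared. The shared bases take in 375 of the 1290 coding bases of KRT18. The KRT8 transcript that starts at 52906618 has no exon there.

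**Figure D1:**
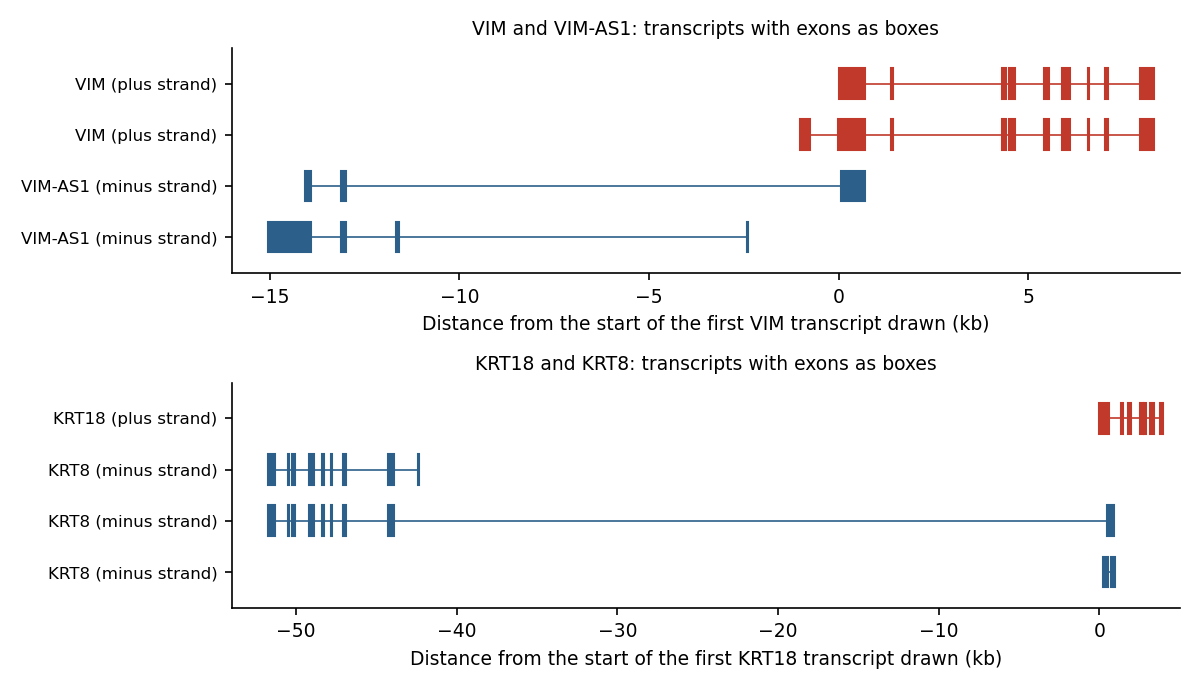
Exon maps of VIM with VIM-AS1 and of KRT18 with KRT8, for chosen transcripts of each gene; the x axis is distance in kb from the start of the first VIM or KRT18 transcript drawn, boxes are exons, and strands are named at the left. The exon of 1 VIM-AS1 transcript lies inside the first large VIM exon, and the upstream exons of some KRT8 transcripts lie inside KRT18.

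VIM, the type III filament gene, had 1298 and 1189 TPM in shNUP210 against 243 and 205 TPM in shCon. Both knockdown libraries lay far above both controls, and VIM moved from ranks 560 and 662 of all listed genes in shCon to ranks 107 and 116 in shNUP210. The means were 1243 ± 77 and 224 ± 27 TPM (SD, n = 2), a ratio of 5.55. The difference was 2.47 on the log2(TPM + 1) scale (SE 0.11), and 99.5% of tested genes had a lower one.

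VIM-AS1, the antisense RNA, was at 2427 and 2320 TPM in shNUP210 and at 370.5 and 393 TPM in shCon. It stood above VIM in every library, and the groups did not overlap. Its means were 2374 ± 76 and 382 ± 16 TPM (SD, n = 2), a ratio of 6.21, and its difference was 2.63 on the log2 scale (SE 0.08). The ratio of VIM-AS1 to VIM within a library was 1.87 and 1.95 in shNUP210 and 1.53 and 1.92 in shCon, and these values overlap. The antisense row therefore moved with the sense row, and the ratio between them did not separate the groups. When TPM times transcript length was summed over both rows, the difference was 2.57 on the log2 scale. Another row at this locus, RP11-124N14.3, shares 619 exon bases with VIM on the opposite strand. It was at 7.35 TPM in shNUP210 replicate 1 and listed at 0 in the other 3 libraries.

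Fibroblast and stellate cell markers were measured beside VIM because VIM is also high in those cells. Of 9 markers, 6 had rows, with a summed level of 41.7 and 21.3 TPM in shNUP210 and 13.6 and 15.9 TPM in shCon. COL1A1, a fibrillar collagen gene, made up much of this, at 18.9 and 7.55 TPM against 1.25 and 3.8 TPM. THY1 was listed at 0 in 3 libraries and at 0.5 TPM in shNUP210 replicate 1, and DCN, ACTA2 and DES had no row under these symbols. COL3A1 (0.63 and 1.23 against 0.32 and 0.18 TPM) and LUM (4.02 and 3.01 against 1.71 and 2.64 TPM) were also higher in both shNUP210 libraries. The groups of PDGFRB, RGS5 and THY1 overlapped. Of the 2 markers tested, COL1A1 and PDGFRB, 0 were called by limma, beside 2.86% of all tested genes. COL1A1 passed the expression filter only through the shNUP210 libraries. The part of this list in the VIM values was not tested. In bulk RNA, a larger share of cells with vimentin and more VIM RNA per cell cannot be told apart.

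KRT8, the type II keratin of simple epithelia, was the most abundant of the 8 genes, at 5620 and 5713 TPM in shNUP210 and at 3889 and 3734 TPM in shCon. It ranked 15 in both shNUP210 libraries and 32 in both shCon libraries. Its means were 5667 ± 66 and 3812 ± 110 TPM (SD, n = 2), a ratio of 1.49, and its difference was 0.57 on the log2 scale (SE 0.05). In TPM the KRT8 mean was higher by 1855, against 1992 for VIM-AS1, 1019 for VIM and 557 for KRT18, although the ratio of KRT8 was the lowest of the 8.

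KRT18, the type I partner of KRT8, was at 1642 and 1585 TPM in shNUP210 and at 1092 and 1021 TPM in shCon. The groups did not overlap, the means were 1614 ± 41 and 1056 ± 51 TPM (SD, n = 2), and the difference was 0.61 on the log2 scale (SE 0.07). The KRT8 and KRT18 differences lay only 0.34 and 0.38 above the median of all tested genes.

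The ratio of KRT8 to KRT18 within a library does not depend on how libraries are scaled. It was 3.42 and 3.61 in shNUP210 and 3.56 and 3.66 in shCon, and these values overlap. The group means of the ratio were 3.51 ± 0.13 and 3.61 ± 0.07 (SD, n = 2). Processed pseudogenes of these genes, which could take reads from them, held little: 13 KRT8 pseudogene rows summed to 10.1 to 14.6 TPM and 10 KRT18 rows to 3.53 to 8.07 TPM per library. KRT8P3 (6.52 to 8.18 TPM) and KRT8P10 (0.50 to 3.92 TPM) were the highest of the first family, and KRT18P34 (0.92 to 2.27 TPM) and KRT18P63 (up to 3.78 TPM, and 0 in both replicate 2 libraries) of the second. With pseudogene rows added, the differences of KRT8 and KRT18 were 0.57 and 0.61.

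KRT19, the type I keratin of bile duct epithelium, was at 192 and 182 TPM in shNUP210 and at 75.0 and 58.1 TPM in shCon. The gap between the groups was wider than the gap between the control libraries. The means were 187.4 ± 7.0 and 66.6 ± 12 TPM (SD, n = 2), a ratio of 2.81, with a difference of 1.49 on the log2 scale (SE 0.16). KRT19 (ENSG00000171345, chromosome 17, 41523617 to 41528308, minus strand) shares no exon bases with another listed gene. The ratio of KRT19 to KRT18 within a library was 0.117 and 0.115 in shNUP210 and 0.0687 and 0.0569 in shCon, so the type I keratin pool held relatively more KRT19 in shNUP210. KRT8 against KRT18 and KRT19 together was 3.06 and 3.23 in shNUP210 and 3.33 and 3.46 in shCon.

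Of the other cholangiocyte markers, 2 were tested and 0 called by limma, beside 2.86% of all tested genes called. EPCAM, an epithelial adhesion molecule of bile ducts, was at 19.2 and 16.9 TPM in shNUP210 and at 32.9 and 32.5 TPM in shCon (limma adjusted p = 0.092). SOX9, a transcription factor of bile ducts, was at 59.8 and 43.3 against 56.5 and 52.1 TPM. SPP1, which did not pass the expression filter, was at 4.46 and 5.24 TPM in shNUP210 and at 2.46 and 2.68 TPM in shCon. Without KRT19, the 4 other markers with rows summed to 86.9 and 65.4 TPM in shNUP210 and 91.9 and 87.6 TPM in shCon, and EPCAM and SOX9 made up most of this. CFTR was listed at 0 in 2 of the libraries, and KRT7 had no row under that symbol. The part of these markers in the KRT19 values was not tested.

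Together VIM, KRT8, KRT18 and KRT19 took 0.875 and 0.867% of all TPM in shNUP210 and 0.530 and 0.502% in shCon. VIM was 14.8 and 13.7% of this filament pool in shNUP210, against 4.58 and 4.09% in shCon. The pool leaves out VIM-AS1, at 2427 and 2320 TPM in shNUP210 and 370.5 and 393 TPM in shCon. With the strand setting unknown, reads of the shared exons may be divided between VIM and VIM-AS1, or between KRT8 and KRT18. How far this alters the shares and ratios of this pool was not tested. The share of KRT8 was 64.2 and 65.9% in shNUP210 and 73.4 and 74.4% in shCon, and that of KRT18 was 18.8 and 18.3% against 20.6 and 20.3%. The filament pool was thus larger in shNUP210 and held relatively more VIM, yet KRT8 stayed its largest part. VIM stood at 0.79 and 0.75 times the KRT18 level in shNUP210 and at 0.222 and 0.201 times in shCon.

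**Figure D2:**
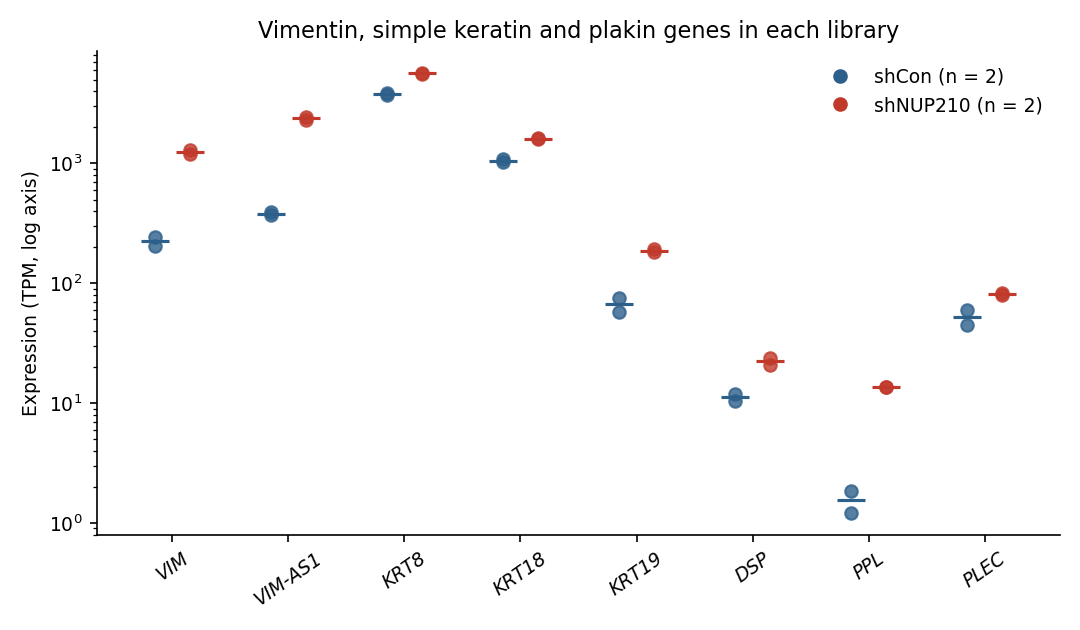
Expression of the 8 genes in TPM on a log axis, with 1 point per library, a bar at the group mean, shCon in blue and shNUP210 in red. Every gene has both shNUP210 points above both shCon points, with the widest gaps for VIM, VIM-AS1 and PPL.

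**Figure D3:**
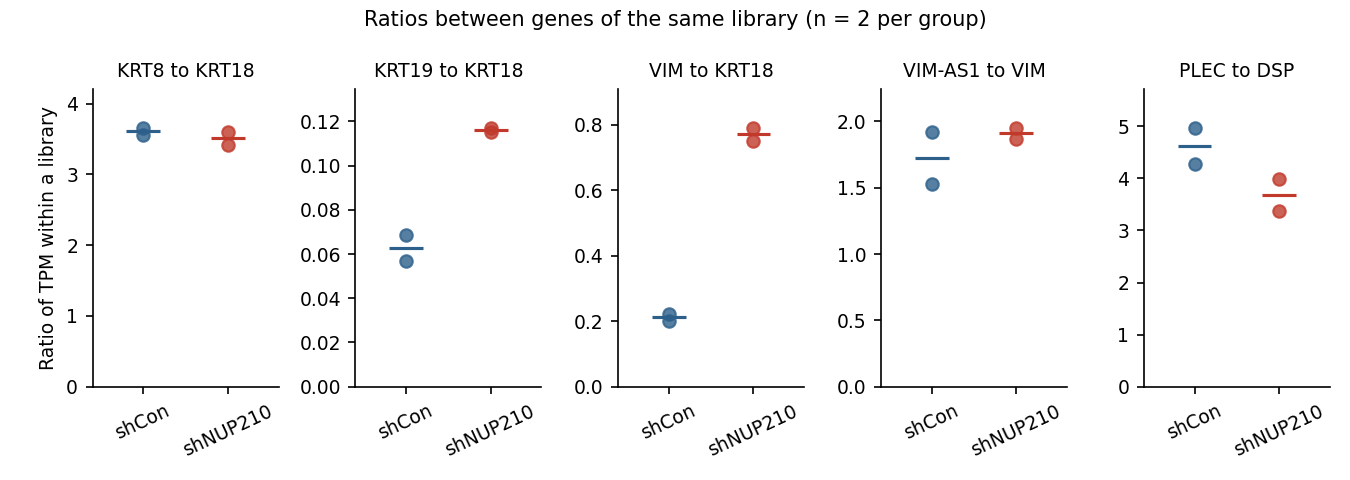
Ratios of TPM between 2 genes of the same library, with 1 point per library and a bar at the group mean. KRT8 to KRT18 and VIM-AS1 to VIM overlap between the groups, while KRT19 to KRT18 and VIM to KRT18 are higher in both shNUP210 libraries.

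PPL, periplakin, a plakin that binds keratin 8 and vimentin, was at 13.6 and 13.7 TPM in shNUP210 and at 1.22 and 1.86 TPM in shCon. It was the least abundant of the 8 genes in every library and had the largest ratio of means, 8.84 (13.61 ± 0.07 against 1.54 ± 0.45 TPM, SD, n = 2). Its difference was 2.54 on the log2 scale (SE 0.40). PPL (ENSG00000118898, chromosome 16, 4882507 to 4960741, minus strand) passed the filter of at least 5 TPM in 2 libraries only through the shNUP210 libraries. Taking the commonest product of TPM and length among low single-transcript genes as the worth of 1 fragment (0.525 to 0.675 TPM on a 1 kb transcript), the shCon values correspond to roughly 14 and 22 fragments and the shNUP210 values to roughly 135 and 126, if all came from the 6238-base transcript. These figures are approximate and carry no interval.

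DSP, desmoplakin, which anchors keratin filaments in desmosomes, was at 20.9 and 23.6 TPM in shNUP210 and at 11.9 and 10.4 TPM in shCon. The groups did not overlap, the ratio of means was 1.99 (22.3 ± 1.9 against 11.2 ± 1.1 TPM, SD, n = 2), and the difference was 0.93 on the log2 scale (SE 0.24). DSP is ENSG00000096696, on chromosome 6, 7541575 to 7586717, plus strand.

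PLEC, plectin, which cross-links filaments to actin, hemidesmosomes and the nuclear surface, was at 83.5 and 79.7 TPM in shNUP210 and at 59.3 and 44.6 TPM in shCon. The control libraries stood further apart than the knockdown libraries, at means of 52.0 ± 10.5 and 81.6 ± 2.7 TPM (SD, n = 2). The ratio of means was 1.57 and the difference 0.65 on the log2 scale (SE 0.19). PLEC is ENSG00000178209, on chromosome 8, 143915147 to 143976734, minus strand. PLEC was the most abundant of the 3 plakins in every library, and it stood at 3.99 and 3.37 times DSP in shNUP210 and 4.97 and 4.27 times in shCon. DSP stood at 1.54 and 1.73 times PPL in shNUP210 and at 9.79 and 5.61 times in shCon.

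All 8 genes had both shNUP210 libraries above both shCon libraries, as did 42.9% of tested genes. Of the 8, 6 passed an adjusted p of 0.05 upward in limma (VIM, VIM-AS1, KRT8, KRT18, KRT19 and PPL), against 1.79% of tested genes (2.86% in either direction), and DSP and PLEC did not. PPL is among the 6 although it passed the expression filter only through the shNUP210 libraries. Both counts describe genes chosen for this comparison, and nothing is read from them. The median difference of the 8 was 1.21, beside 0.23 for all tested genes. In TPM as deposited with a pseudocount of 1, the order by difference was VIM-AS1, PPL, VIM, KRT19, DSP, PLEC, KRT18 and KRT8. The intervals of 1 SE of PPL overlap those of both VIM rows, and that of PLEC overlaps those of DSP, KRT18 and KRT8. The order depends on the setting: PPL had the largest difference with a pseudocount of 0.1 (3.09) and a smaller one than VIM with a pseudocount of 5 (1.51 against 2.45), and with quantile normalization KRT8 (0.68) lay above KRT18 (0.65), DSP (0.65) and PLEC (0.48).

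The calls rest on all 4 libraries. Without any single library (shNUP210 replicate 1 or 2, shCon replicate 1 or 2), 2 of the 8 genes, VIM and VIM-AS1, passed. Trimmed-mean scaling, which sets the median of all genes near 0, left 4 (VIM, VIM-AS1, KRT19 and PPL).

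**Figure D4:**
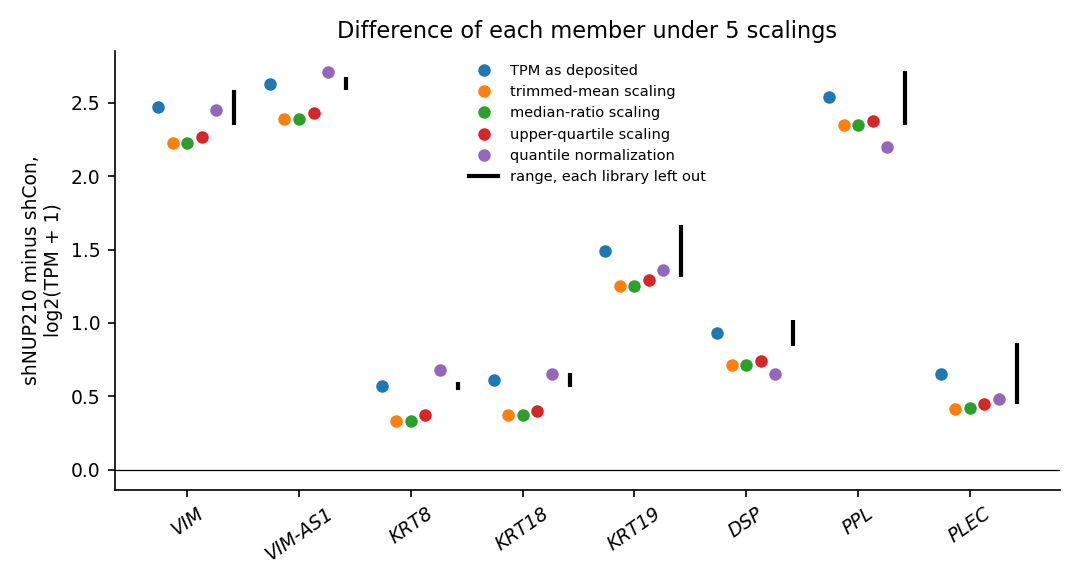
Difference shNUP210 minus shCon of each gene on the log2(TPM + 1) scale, for TPM as deposited and 4 other scalings (points), with the range when each library is left out in turn (black bars). All points lie above 0, and the KRT8, KRT18 and PLEC points come closest to it.

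Other genes of the filament system were counted from lists of desmosome, hemidesmosome, plakin, filament and regulator genes, 75 symbols in all, of which 52 had rows and 31 rows passed the expression filter. By limma, 0 of the 31 were called higher and 0 lower, against 1.79% and 1.07% of tested genes, with 7 higher and 2 lower at an unadjusted p under 0.05, as were 1866 and 603 of the 10140 tested genes (18.4% and 5.95%). Of the 31, 17 had both shNUP210 libraries above both shCon libraries, 4 below and 10 overlapped, against 42.9% above and 14.3% below for all tested genes. Their median difference was 0.21 on the log2 scale, beside 0.23 for all tested genes. Of the 31, 3 passed the filter in 1 group only (ITGB4, SYNM and INA).

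The 3 other plakins tested all had groups apart, with shNUP210 higher, as had 42.9% of all tested genes. None passed an adjusted p of 0.05 in limma, beside 2.86% of all tested genes. DST, dystonin, a plakin of hemidesmosomes and of the cytoskeleton, was at 33.2 and 39.9 TPM in shNUP210 and at 9.75 and 3.37 TPM in shCon. Its difference of 2.45 (SE 0.46) had a limma adjusted p of 0.057, and it was under 0.05 with a pseudocount of 5 or with a filter of 1 TPM in all 4 libraries. MACF1, which links microtubules and actin, was at 26.3 ± 3.7 and 13.5 ± 1.1 TPM (SD, n = 2, adjusted p = 0.10). EPPK1, epiplakin, which binds keratin networks, was at 12.4 ± 0.3 and 8.51 ± 0.07 TPM (SD, n = 2, adjusted p = 0.33).

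Of 6 tested desmosome partners of DSP, 0 were called by limma, beside 2.86% of all tested genes. Both shNUP210 libraries were higher for 4 of them and lower for 1, and 1 overlapped, beside 42.9% higher and 14.3% lower for all tested genes. JUP, plakoglobin, was at 82.9 ± 9.5 and 71.5 ± 7.7 TPM, PKP4, a plakophilin relative, at 39.9 ± 9.5 and 26.3 ± 5.2 TPM, and PERP, a desmosomal membrane protein gene, at 19.0 ± 0.4 and 16.4 ± 0.3 TPM in shNUP210 and shCon (SD, n = 2). Limma adjusted p-values were 0.46, 0.23 and 0.61. The plakophilins, which bind desmoplakin, are named after their values were seen. PKP2 was at 18.7 and 20.6 TPM in shNUP210 and 8.27 and 9.29 TPM in shCon (adjusted p = 0.087). PKP3 was at 5.51 and 7.40 TPM in shNUP210 and 14.2 and 11.04 TPM in shCon (adjusted p = 0.19).

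Hemidesmosome genes had 3 tested members and 0 calls by limma, beside 2.86% of all tested genes called. CD151, a tetraspanin of hemidesmosomes, was at 154.1 ± 7.1 and 158.7 ± 6.4 TPM, and ITGA6, its integrin partner, at 16.1 ± 5.2 and 11 ± 2.3 TPM (SD, n = 2). ITGB4, the integrin chain that binds plectin, was at 1.33 and 4.03 TPM in shNUP210 and at 16.4 and 5.44 TPM in shCon (limma adjusted p = 0.21).

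Of the other type III and type IV filament genes, NES, nestin, was at 77.2 ± 1.3 and 66.8 ± 1.5 TPM, and SYNM, synemin, at 7.995 ± 0.615 and 4.09 ± 0.37 TPM (SD, n = 2; limma adjusted p 0.40 and 0.24). INA, alpha-internexin, a neuronal filament gene, was at 7.27 and 7.93 TPM in shNUP210 and at 0.46 and 1.72 TPM in shCon (adjusted p = 0.099). Among 16 other keratins, KRT10 was the single one tested, at 7.97 ± 1.4 and 7.06 ± 1.6 TPM (SD, n = 2, adjusted p = 0.81). KRT222, listed under 2 identifiers, had no value above 8.03 TPM, and no other keratin of the list with a row exceeded 2.22 TPM.

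Transcription and splicing factors known to set epithelial or mesenchymal state had 3 tested members and 0 calls, beside 2.86% of all tested genes called. ESRP2, an epithelial splicing factor, was at 18.6 and 17.9 TPM in shNUP210 and 20.2 and 13.8 TPM in shCon. SNAI1, a factor that represses epithelial genes, was at 8.35 and 6.20 against 7.07 and 7.17 TPM, and ZEB1, of similar role, at 6.27 and 6.06 against 2.08 and 6.73 TPM. The limma adjusted p-values were 0.81, 0.98 and 0.57, and the groups of all 3 genes overlapped.

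Among 12 tested genes listed as filament regulators, 7 had shNUP210 higher and 2 lower, with the groups of the other 3 overlapping. Of all tested genes, 42.9% had both shNUP210 libraries higher and 14.3% lower. SLC9A3R1, a membrane scaffold gene, was at 377.4 ± 8.2 TPM in shNUP210 and 347.1 ± 17.2 TPM in shCon (SD, n = 2). KRTCAP2, for which no role in filaments was examined here, was at 170.3 ± 18.0 and 237.0 ± 27.4 TPM. AURKB, a mitotic kinase that phosphorylates vimentin, was at 207.3 ± 1.9 and 189.2 ± 22.5 TPM. The limma adjusted p-values were 0.45, 0.12 and 0.53. TCHP, trichoplein, which binds keratin filaments, is named after its values were seen: 68.1 and 77.4 TPM in shNUP210 and 37.6 and 41.4 TPM in shCon (adjusted p = 0.059).

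**Figure D5:**
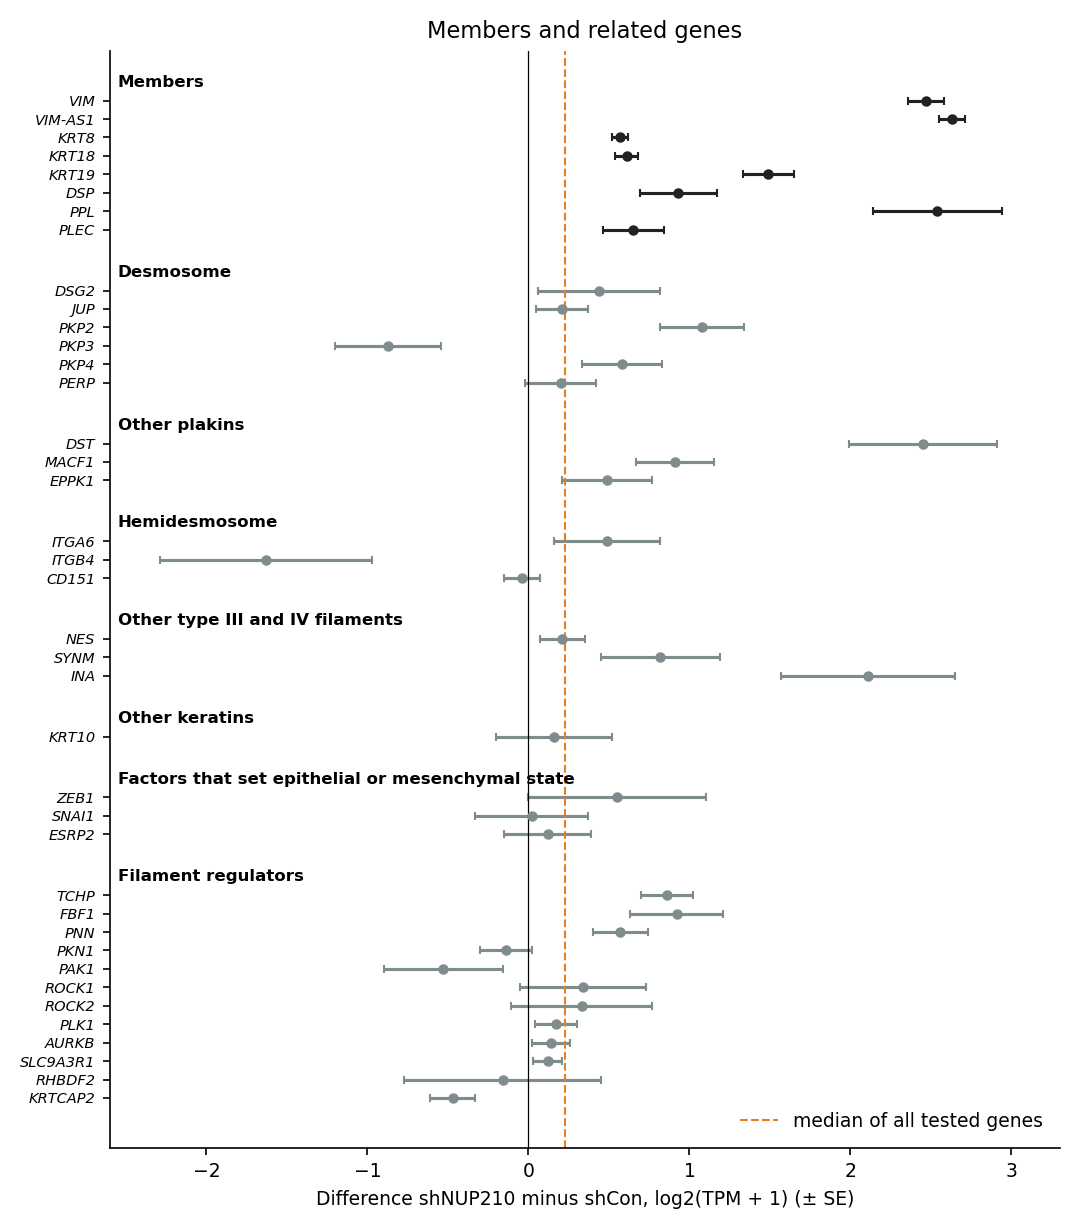
Difference shNUP210 minus shCon on the log2(TPM + 1) scale with its standard error, for the 8 genes (black) and 31 related genes (grey), with the median of all tested genes as a dashed line. The related genes spread to both sides of the dashed line, and DST and INA lie farthest to the right of it.

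The nearest tested neighbours of the 8 genes on each side were 12 genes, chosen after the values of the 8 were seen. Their differences were -0.42 to 0.66 on the log2 scale, and 0 were called by limma, beside 2.86% of all tested genes. RSU1 and STAM, on either side of VIM, were at 0.39 (SE 0.20) and -0.25 (SE 0.59). EIF4B, 53.3 kb beyond KRT18, was at 162 and 163 TPM in shNUP210 and 240 and 196 TPM in shCon. UBN1, which ends 0.1 kb from PPL, was at 20.3 and 13.9 TPM in shNUP210 and 13.4 and 11.7 TPM in shCon.

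Genes with the profile nearest to VIM over the 4 libraries, by Euclidean distance on log2 values centred on the shCon mean, were RP4-548D19.3 (0.13), RP11-265D17.2 (0.28), PDE5A (0.30), PCSK7 (0.31) and MRPS18AP1 (0.32), beside a median of 3.21 for all tested genes. RP11-265D17.2, an antisense RNA with 500 exon bases in common with MICAL2, was at 236.9 and 224.9 TPM in shNUP210 and 44.3 and 45.5 TPM in shCon. PCSK7, a proprotein convertase gene, was at 117.1 and 139.7 against 22.1 and 19.2 TPM, and it shares 446 exon bases with TAGLN. Nearest to PPL were PROM1 (0.07), MRPS18AP1 (0.29), FLRT2 (0.29), SDPR (0.32) and Z69720.2 (0.33), and PROM1, the gene of the surface protein CD133, was at 46.6 and 49.0 against 6.41 and 8.17 TPM. Nearest to KRT18 were ENTPD1, DHX15, PHF19, C9orf117 and CLVS1, at distances of 0.03 to 0.04. With 4 libraries, such likeness largely restates the size of the difference.

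Promoter windows, 250 bases before to 50 after a gene's start, were available from RefSeq (GRCh38.p14) for 4 of the 8 genes, VIM, VIM-AS1 (2 starts), KRT8 and DSP, and not for KRT18, KRT19, PPL and PLEC. Both strands were searched for the Sp1 motif GGGCGG, the AP-1 motif TGANTCA, the TEAD motif GGAATG, the E-box CAGGTG bound by SNAI1 and ZEB1, and the TATA box TATAAA, which 44.95, 7.71, 14.0, 20.6 and 11.5% of 35116 windows hold. The windows of VIM and of the VIM-AS1 start inside VIM are shown because these rows moved together, and that of DSP because it holds the most matches. Capitals mark motif matches, and overlapping matches run together.
VIM, chr10:17227991-17228290, plus strand: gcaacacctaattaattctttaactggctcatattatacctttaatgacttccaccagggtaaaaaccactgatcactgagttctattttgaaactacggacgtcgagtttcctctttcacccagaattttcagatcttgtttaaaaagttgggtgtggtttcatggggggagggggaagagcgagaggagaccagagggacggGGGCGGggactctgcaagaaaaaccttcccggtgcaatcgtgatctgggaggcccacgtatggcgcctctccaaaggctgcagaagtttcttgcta
VIM-AS1, chr10:17229936-17230235, minus strand: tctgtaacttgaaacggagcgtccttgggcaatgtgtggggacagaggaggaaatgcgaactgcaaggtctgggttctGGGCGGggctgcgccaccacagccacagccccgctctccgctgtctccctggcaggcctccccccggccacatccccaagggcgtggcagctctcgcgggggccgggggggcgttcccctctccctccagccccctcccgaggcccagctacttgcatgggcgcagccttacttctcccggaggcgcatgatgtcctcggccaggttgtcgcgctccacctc
DSP, chr6:7541421-7541720, plus strand: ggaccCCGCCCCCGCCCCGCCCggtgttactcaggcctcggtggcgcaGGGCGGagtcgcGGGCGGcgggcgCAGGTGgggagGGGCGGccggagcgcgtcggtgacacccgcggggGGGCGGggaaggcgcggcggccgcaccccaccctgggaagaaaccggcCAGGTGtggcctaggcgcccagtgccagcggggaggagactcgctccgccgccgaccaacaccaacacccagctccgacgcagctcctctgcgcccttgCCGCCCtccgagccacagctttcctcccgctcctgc

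The VIM window holds 1 Sp1 match, at position -46 from the start, and none of the other motifs. This start lies upstream of the VIM transcript that begins at 17229278, and the window ends before that transcript and does not cover its start. The VIM-AS1 window holds 1 Sp1 match, at -172, and its transcribed end lies in VIM exon sequence. The DSP window holds 8 Sp1 matches and 2 E-boxes, at -178 and -85. The KRT8 window (52926420 to 52926719) lies inside the annotated KRT8 gene and holds 1 TEAD match. It lies upstream of the KRT8 transcript that starts at 52906618 and does not cover that start. The second VIM-AS1 window holds 1 AP-1 and 1 TEAD match. A match is a description of these letters only, and the motifs were chosen after the values were seen.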

How the data were processed

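The authors deposited 1 table per library with TPM for 20226 genes. The tools named are DESeq, RSEM, STAR and Trimmomatic, with build hg38, per the submitters' processing notes; versions, roles, annotation release and strand setting are not given in the sources used here, and read depth is unknown. Total RNA was extracted with Trizol and libraries were made with a TruSeq RNA kit, per the labels' protocols. Genes with at least 5 TPM in 2 libraries (10140) were tested two-sided on log2(TPM + 1) values, using limma 3.58.1 under R 4.3.3, a trended variance prior and Benjamini-Hochberg adjustment over all genes tested. A fold change on this scale understates the change of low genes. This filter and scaling follow an earlier look at these data that was not blind to counts of calls, and the members and lists were chosen with earlier results of these data known. Named related genes are those called plus the 3 most abundant of each list; named profiles are the 5 nearest to VIM, KRT18 and PPL. Neighbours and motifs were added later. Exon overlaps and lengths come from GENCODE release 29, which held lengths for 19643 listed genes. The limma script was tested on simulated data. Alternatives were other scalings, pseudocounts, filters and variance models, a replicate block and each library left out. Sequence of the exon shared by KRT8 and KRT18 is not reported here.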

Additional observations from a re-analysis of the deposited data

How the results depend on the processing

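All 8 genes kept a positive difference under each scaling, pseudocount and left-out library, which their choice from this comparison makes little evidence of stability. On the log2 scale, trimmed-mean, median-ratio and upper-quartile scaling gave VIM 2.23, 2.23 and 2.27 (2.47 in TPM as deposited), VIM-AS1 2.39, 2.39 and 2.43 (2.63), KRT8 0.33, 0.33 and 0.37 (0.57), KRT18 0.37, 0.37 and 0.40 (0.61), KRT19 1.25, 1.25 and 1.29 (1.49) and DSP 0.71, 0.71 and 0.74 (0.93); trimmed-mean and median-ratio scaling gave PPL 2.35 and 2.35 (2.54) and PLEC 0.41 and 0.42 (0.65). These scalings take out most of the median of all genes. Quantile normalization gave VIM-AS1 2.71, KRT8 0.68, DSP 0.65 and PPL 2.20. A pseudocount of 0.1 gave PPL 3.09, and one of 5 gave PPL 1.51 and DSP 0.75. With each library left out in turn, VIM ranged from 2.35 to 2.59, PPL from 2.35 to 2.72 and PLEC from 0.45 to 0.86. Calls over all genes, 181 higher and 109 lower, became 78 and 250 with trimmed-mean, 81 and 248 with median-ratio, 92 and 230 with upper-quartile scaling, and 87 higher with quantile normalization. They became 10 and 5 with no filter, 30 and 27 with at least 1 TPM in 2 libraries, and 0 and 0 without the mean-variance trend (1816 higher and 474 lower at an unadjusted p under 0.05). Without one library they ranged from 3 to 14 higher and 1 to 13 lower. Related genes called higher numbered 1, DST, with a pseudocount of 5 or at least 1 TPM in all 4 libraries. Of the 8 genes, 6 were called in TPM as deposited, 5 with median-ratio scaling (not KRT18), 5 with quantile normalization or a pseudocount of 0.1 (not PPL), 3 with at least 1 TPM in 2 libraries, 2 with no filter and 0 without the trend. The replicate block, which pairs libraries by the number in their titles, gave 31 higher and 32 lower calls and ended the call of PPL; the labels do not say that the numbers pair libraries, and same-numbered deviations correlated at 0.0231. The cause of these changes was not tested. TPM keep no depth, so low values such as those of PPL in shCon carry no counting interval.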
